A study of Bos taurus with 6 samples.

Results

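Oxidative phosphorylation is carried out by 5 protein complexes of the inner mitochondrial membrane. Complexes I to IV pass electrons from NADH and succinate to oxygen, and complexes I, III and IV pump protons. Complex V, the ATP synthase, uses the proton gradient to make ATP. Most subunits are encoded in the nucleus, and a cow embryo that builds a blastocoele draws on this ATP for the ion pumps that move fluid into the cavity. The nuclear subunit genes were chosen by symbol: NDUFA, NDUFB, NDUFC, NDUFS and NDUFV for complex I, SDHA to SDHD for complex II, UQCR and CYC1 for complex III, COX4 to COX8 for complex IV and ATP5 for complex V. They took 110 of the 24016 probe sets on the Bovine Genome Array that are not controls, and 85 of the 9155 genes named by a single symbol.

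The samples were pools of 20 bovine (Bos taurus) embryos produced by in vitro fertilization and collected on day 8. Late degenerative embryos (3 pools, A, B and C) had compacted to morulae but lacked a proper inner cell mass and blastocoele, and blastocysts (3 pools, A, B and C) had both. The embryos came from abattoir oocytes and semen of several bulls, neither group was treated, and each pool was amplified and hybridised to its own array. The deposited values are on a log2 scale, so 1 unit is a 2-fold difference, and differences are given as degenerative embryos minus blastocysts. A pool holds whole embryos, so fewer cells of a type and less RNA per cell cannot be told apart.

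Of the 110 probe sets, 8 held 1 value on every array and could not be tested, which left 102 of the 18937 tested. They belonged to 79 subunit genes, 78 of them tested, and to 6 genes whose symbols fit the prefixes but whose proteins are not subunits (the assembly factors NDUFAF3, NDUFAF5, NDUFAF6 and NDUFAF8, the supercomplex factor COX7A2L and the ATP synthase inhibitor ATP5IF1). NDUFA4 and its paralog NDUFA4L2 were counted with complex IV, where NDUFA4 is now placed. This gave 36 genes of complex I, 4 of complex II, 9 of complex III, 14 of complex IV and 16 of complex V. Of the 110 probe sets, 93 had a mean of at least 5 over the arrays, and 22 genes had more than 1 probe set. For counts per gene, its brightest probe set stood for it.

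Pool A stood apart from pools B and C in both groups, and a printed difference or median that moved by over 1.5 times or changed sign when degenerative pool A was left out is also given without it. Over the 18937 probe sets, degenerative pool A correlated with degenerative pools B and C at r = 0.938 and 0.936, against 0.987 between B and C. Blastocyst pool A correlated with blastocyst pools B and C at 0.977 and 0.972, against 0.994 between B and C. The control gene eIF-4E, probed at both ends, was 9.13 to 9.87 units brighter at its 3' than at its 5' end in degenerative pools and 6.60 to 8.59 units in blastocysts, with its 5' signal near the floor in degenerative pools A and B (2.64 and 2.56). Actin ran the other way, with a gap of 2.29 to 4.94 in degenerative pools and 5.37 to 6.65 in blastocysts. Its 5' signal lay near the floor on every array (2.195 to 2.202), so its gap followed its 3' signal alone and gave no measure of RNA quality. The gaps of GAPDH (2.48 to 2.52 in degenerative pools and 1.83 to 2.89 in blastocysts) and of cyclophilin (2.52 to 3.22 in degenerative pools and 2.13 to 2.72 in blastocysts) overlapped, and that of EF1A was 0.52 to 0.83 in degenerative pools and -1.65 to 0.87 in blastocysts. Leaving actin aside, only eIF-4E separated the groups. The controls thus gave no common order of RNA quality between the groups, and its part in the results was not tested. Inner cell mass genes (4 of 8 listed were on the array) had higher means in degenerative embryos in 4 of 4, and trophectoderm genes (9 of 13) had lower means in 7 of 9. The summed trophectoderm level was 15.85 to 16.17 in degenerative pools and 16.25 to 16.70 in blastocysts, and the summed inner cell mass level was 14.20 to 15.07 in degenerative pools and 13.95 to 14.08 in blastocysts. Such sums rest mostly on the brightest probe sets. KRT18, the brightest trophectoderm gene, overlapped between the groups, with 15.17 to 15.52 in degenerative pools and 15.26 to 15.65 in blastocysts. The inner cell mass genes were POU5F1, KLF4, SOX2 and SPP1, and the trophectoderm genes furthest below blastocysts were TFAP2A (difference -2.90) and KRT19 (-1.18, and -0.51 without degenerative pool A). Hypoblast genes were higher in 4 and lower in 2. Cumulus and granulosa genes were higher in 4 and lower in 4, with a summed level of 10.51 to 11.99 in degenerative pools and 10.23 to 10.89 in blastocysts. FOXL2 and AMH lay at the floor of the scale throughout, while INHBA had 8.70, 9.03 and 7.84 in degenerative pools, against 3.71, 6.64 and 7.68 in blastocyst pools, with no overlap, and HAS2 read 9.92 to 11.80 in degenerative pools and 9.998 to 10.82 in blastocysts. PTX3 was at 8.36 and 7.22 in degenerative pools B and C and at the floor in degenerative pool A, against 2.12 to 4.27 in blastocysts, and VCAN had 4.73 to 6.35 in degenerative pools and 3.62 to 5.25 in blastocysts. These were the 4 higher ones. Of the 4 lower ones, CYP19A1 had 2.55 to 2.75 in degenerative pools, against 2.60, 4.87 and 6.69 in blastocyst pools (difference -2.08). TNFAIP6 differed by -0.82 (-0.21 without degenerative pool A) and FSHR by -0.52, and INHA lay near the floor. Spermatozoa genes were higher in 2 and lower in 2, with PRM2 and ODF1 at the floor and ODF2 at 10.23 to 10.71 in degenerative pools, against 10.81 to 10.95 in blastocysts, called lower by SAM at 25%. The 2 higher ones were dim, with AKAP4 at 2.13 to 2.54 and PRM1 at 3.43 to 4.06 over all pools. TNP1 had 4.51 to 5.69 in degenerative pools and 4.43 to 7.42 in blastocysts. The part of these cell types in the results was not tested.

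No probe set of an oxidative phosphorylation gene differed between degenerative embryos and blastocysts by limma at an adjusted p of at most 0.15, against 4 of all 18937 tested (0.0211%). The smallest adjusted p among the 102 was 0.514 (limma), for NDUFB5. An unadjusted limma p under 0.05 was reached by 4 of the 102 (3.92%), against 8.61% of all probe sets, with 1 higher in degenerative embryos (3.34% of all were) and 3 lower (5.27% of all were). Separate ranges of the degenerative and the blastocyst pools were seen for 6 of the 102 (5.88%), against 15.4% of all, and the difference was at least 1 unit for 3 (2.94%), against 10.9% of all, each lower in degenerative embryos (5.84% of all were). The significance analysis of microarrays (SAM) used in the methods called none at a false discovery rate of 15% (0.354% of all) and 3 at 25%, all lower in degenerative embryos (2.94%, against 4.81% of all and 4.44% called lower). On each of these counts the share among the members was below the share of all probe sets. For the limma calls and the SAM calls at 15%, the shares of all (0.0211% and 0.354%) were too small for 102 probe sets to show a lower share.

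The differences were not bounded tightly by 3 pools a group. The 95% confidence interval of the difference lay within 1 unit of 0 for 48 of the 102 (47.1%), against 45.3% of all probe sets. Among the subunit genes the median standard error was 0.32, and the SD among pools was larger in degenerative embryos for 59 of 78 (75.6%), against 71.2% of all genes.

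Of the 78 subunit genes, 25 had a higher mean and 53 a lower mean in degenerative embryos (67.9% lower, against 45.5% of all 8175 genes tested). The median difference was -0.08 (range -1.48 to 0.57), against 0.02 over all genes (0.00653 without degenerative pool A). This lean turned with the pools used: without degenerative pool A, 24 of 78 were lower and 54 higher (69.2% higher, against 52.7% of all genes), with a median of 0.10. Without both A pools, a choice made after the data were seen, 33 were higher, 44 lower and 1 equal (42.3% higher, against 49.1% of all genes). The median was then -0.04, against 0 over all genes. The median level over the 78 genes was 11.62, 12.30 and 12.36 in degenerative pools A, B and C and 11.86, 12.22 and 12.44 in blastocyst pools A, B and C, so that both A pools were the lowest of their group.

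**Figure D1:**
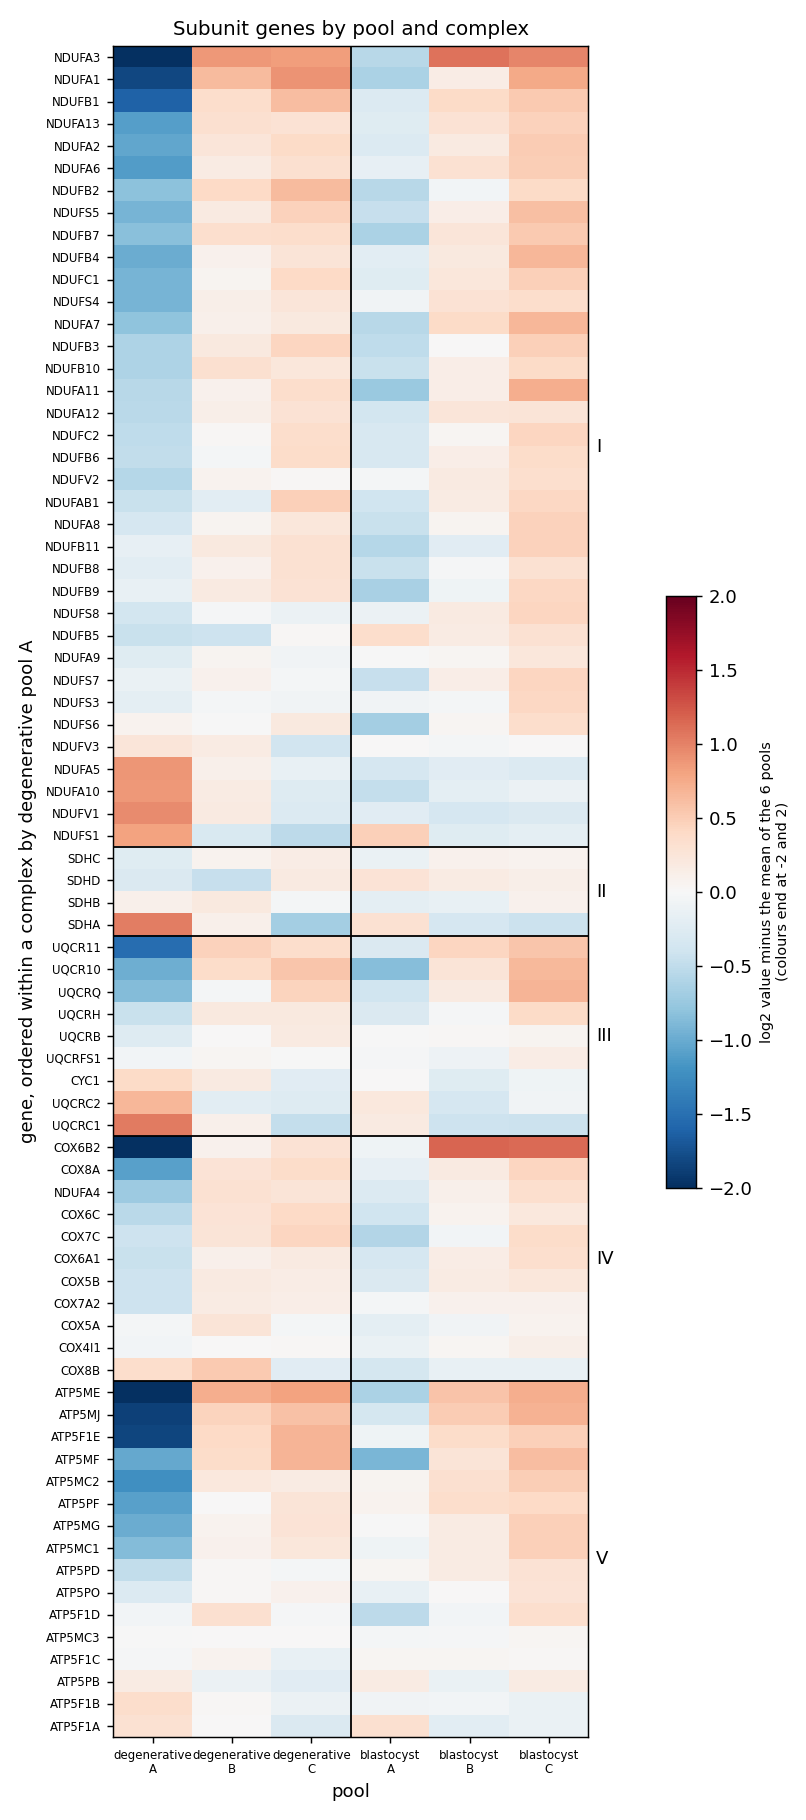
Log2 value of each of the 76 subunit genes with a mean of at least 5, minus its mean over the 6 pools, with degenerative pools on the left and blastocyst pools on the right, and genes grouped by complex I to V and ordered by degenerative pool A. Most rows are blue in both A columns, and a smaller set that includes SDHA, UQCRC1 and NDUFS1 is red in degenerative pool A.

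Complex I takes electrons from NADH through the core subunits of its matrix arm, which carry flavin and iron-sulfur clusters, and is built out by many accessory subunits. Of its 36 genes 10 had higher and 26 lower means in degenerative embryos, with a median difference of -0.11 (0.15 without degenerative pool A). The 6 core genes measured (NDUFS1, NDUFS3, NDUFS7, NDUFS8, NDUFV1 and NDUFV2) had a median of -0.13, and the 30 accessory genes a median of -0.11. Without degenerative pool A these medians were -0.13 for the core and 0.18 for the accessory genes, and 24 of the 30 accessory genes were then higher.

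NDUFB5, an accessory subunit of the membrane arm, had the lowest p of all members. Its values were 11.47, 11.49 and 11.93 in degenerative pools A, B and C, against 12.26, 12.08 and 12.22 in blastocyst pools A, B and C. No degenerative pool reached the lowest blastocyst pool. The difference was -0.55 ± 0.15 (SE, n = 3 each; 95% interval -0.95 to -0.15), with an adjusted p of 0.514 (limma), and SAM called it at 25%. Under the alternatives it ran from -0.70 to -0.43.

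NDUFS8, a core subunit with iron-sulfur clusters on the path to coenzyme Q, had 9.42, 9.77 and 9.68 in degenerative pools, against 9.68, 9.98 and 10.22 in blastocyst pools. Each degenerative pool was below the blastocyst pool of its letter, while the groups overlapped slightly. The difference was -0.34 ± 0.18 (SE, n = 3 each; adjusted p = 0.649, limma). NDUFV1, the core subunit that binds NADH and flavin, was named after its values were seen, since its mean was the furthest above blastocysts of all subunit genes. It had 12.71, 11.94 and 11.50 in degenerative pools, against 11.55, 11.42 and 11.47 in blastocyst pools. Pool A made most of that difference of 0.57 ± 0.33 (SE, n = 3 each, adjusted p = 0.677, limma), which was 0.24 without degenerative pool A.

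NDUFA5, an accessory subunit beside the electron path, was the 1 subunit gene whose degenerative pools all lay above the blastocyst pools on its brightest probe set. It had 14.91, 14.13 and 13.89 in degenerative pools A, B and C, against 13.71, 13.81 and 13.77 in blastocyst pools A, B and C. The gap between the nearest pools was small, and degenerative pool A was the highest by far. The difference was 0.55 ± 0.29 (SE, n = 3 each; adjusted p = 0.648, limma), and 0.25 without degenerative pool A. A second probe set of the gene had 10.19, 11.02 and 11.18 in degenerative pools and 10.32, 11.08 and 10.98 in blastocyst pools, so that the probe sets did not give the same picture: here both A pools were lowest and the difference was 0.00, or 0.31 without degenerative pool A.

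NDUFA3, a small accessory subunit of the membrane arm, had the largest difference in complex I, and it rested on 1 pool. The values were 6.83, 10.92 and 10.90 in degenerative pools A, B and C, against 9.51, 11.14 and 11.04 in blastocyst pools A, B and C. Degenerative pool A was lowest, and blastocyst pool A the next lowest. The difference of -1.01 ± 1.35 (SE, n = 3 each, adjusted p = 0.794, limma) was 0.35 without degenerative pool A and -0.18 without both A pools.

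NDUFAB1, the mitochondrial acyl carrier protein, which is also a subunit of complex I, had 2 probe sets that differed in sign. The first gave 11.14, 11.37 and 12.05 in degenerative pools and 11.19, 11.75 and 12.0025 in blastocyst pools, a difference of -0.13 (0.06 without degenerative pool A). The other gave 7.60, 6.33 and 6.83 in degenerative pools and 6.81, 5.96 and 6.87 in blastocyst pools, a difference of 0.37 (0.03 without degenerative pool A). Groups overlapped on both, and with the mean of both probe sets the gene's difference was 0.12.

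Complex II, succinate dehydrogenase, belongs to the citric acid cycle as well as to the respiratory chain, and all of its 4 subunits were measured. Their median difference was 0.08 (-0.02 without degenerative pool A), with 2 genes higher and 2 lower. SDHD, one of the membrane anchors, had 12.96, 12.79 and 13.42 in degenerative pools, against 13.51, 13.40 and 13.36 in blastocyst pools. Degenerative pools A and B were below every blastocyst pool and pool C was among them (difference -0.37 ± 0.18, SE, n = 3 each; adjusted p = 0.633, limma). SDHB, the iron-sulfur subunit, had 12.51, 12.60 and 12.37 in degenerative pools and 12.22, 12.26 and 12.49 in blastocyst pools (difference 0.18 ± 0.11, SE, n = 3 each, adjusted p = 0.687, limma).

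SDHA, the flavoprotein that oxidises succinate, had 12.75, 11.83 and 11.05 in degenerative pools, against 12.03, 11.39 and 11.29 in blastocyst pools. Pool A was the highest of each group, and degenerative pool C the lowest of all 6. The difference of 0.30 ± 0.50 (SE, n = 3 each; adjusted p = 0.842, limma) was -0.13 without degenerative pool A. SDHC, the other anchor, differed by -0.02 ± 0.13 (SE, n = 3 each), and by 0.10 without degenerative pool A.

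**Figure D2:**
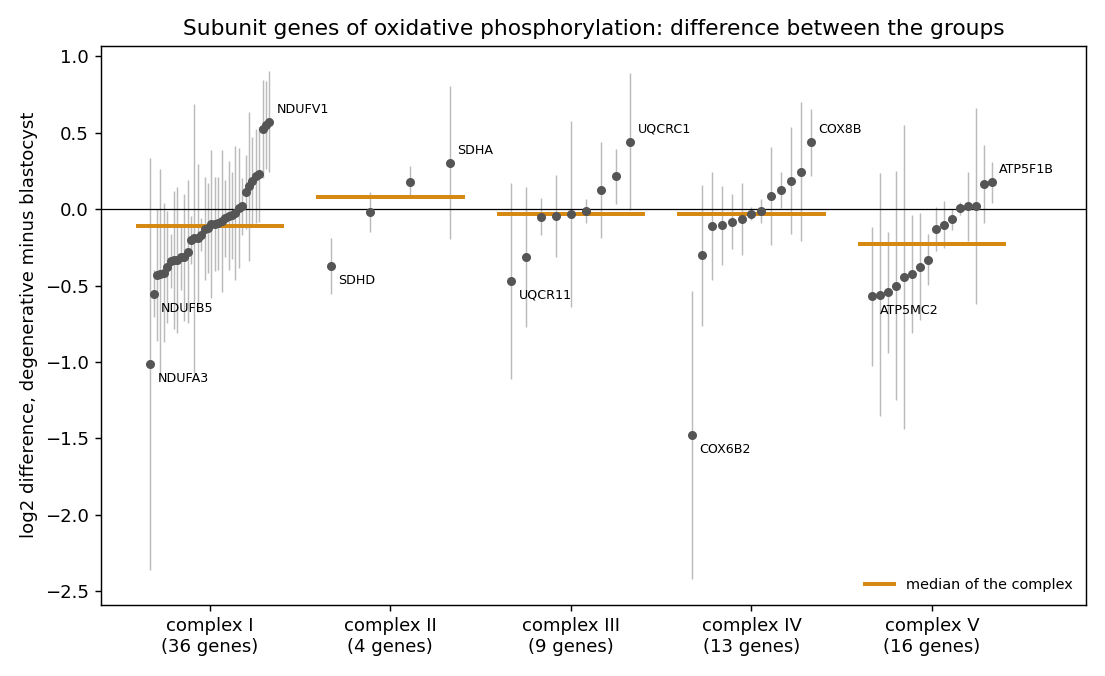
Difference of each tested subunit gene (y axis, log2, degenerative minus blastocyst, with bars of 1 standard error, n = 3 pools each), ordered by size within complexes I to V on the x axis. The orange lines are the medians of -0.11, 0.08, -0.03, -0.03 and -0.23, and most bars reach 0.

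Complex III passes electrons from coenzyme Q to cytochrome c. Of its 9 nuclear genes 3 were higher and 6 lower, with a median of -0.03 (0.07 without degenerative pool A). The subunits that carry redox groups differed little: UQCRFS1, the Rieske iron-sulfur protein, had 13.28, 13.38 and 13.32 in degenerative pools and 13.30, 13.23 and 13.48 in blastocyst pools. All 6 pools lay within 0.5 units, and the 95% interval of its difference ran from -0.22 to 0.20 around -0.01 (0.01 without degenerative pool A). CYC1, cytochrome c1, had 13.07, 12.86 and 12.46 in degenerative pools and 12.70, 12.45 and 12.60 in blastocyst pools (difference 0.21 ± 0.18, SE, n = 3 each, adjusted p = 0.737, limma, and 0.08 without degenerative pool A).

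The large core proteins and the small subunits of complex III lay on opposite sides of pools B and C in the A pools. UQCRC1, core protein 1, had 13.56, 12.63 and 12.04 in degenerative pools, against 12.70, 12.11 and 12.09 in blastocyst pools. Pool A was the highest of both groups (difference 0.44 ± 0.45, SE, n = 3 each; adjusted p = 0.739, limma, and 0.03 without degenerative pool A). UQCR11, a small subunit, had 9.98, 11.96 and 11.85 in degenerative pools, against 11.21, 11.93 and 12.05 in blastocyst pools, with pool A the lowest of both groups. Its difference of -0.47 ± 0.64 (SE, n = 3 each, adjusted p = 0.801, limma) was 0.17 without degenerative pool A.

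UQCRC2, core protein 2, was named after its values were seen, since its dimmer probe set was the only member with an unadjusted limma p under 0.05 that was higher in degenerative embryos. That probe set had 8.41, 7.81 and 8.06 in degenerative pools, against 7.66, 7.46 and 7.27 in blastocyst pools. The groups did not overlap, and each letter was higher in degenerative embryos (difference 0.63 ± 0.19, SE, n = 3 each; adjusted p = 0.537, limma). On the brighter probe set the values were 13.92, 13.05 and 13.00 in degenerative pools and 13.48, 12.93 and 13.19 in blastocyst pools, which overlapped, with a difference of 0.13 ± 0.31 (SE, n = 3 each) that was -0.17 without degenerative pool A.

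Complex IV, cytochrome c oxidase, hands electrons to oxygen. Its nuclear subunits surround a mitochondrially encoded core, and several have isoforms known from heart and muscle or from testis. Of the 13 genes tested 5 were higher and 8 lower, with a median of -0.03 (0.16 without degenerative pool A). COX4I1, the ubiquitous form of the largest nuclear subunit, was among the steadiest members at 14.09, 14.15 and 14.16 in degenerative pools and 14.01, 14.17 and 14.25 in blastocyst pools. The 95% interval of its difference ran from -0.21 to 0.19 around -0.01 (0.01 without degenerative pool A).

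Isoforms known from other tissues were mostly dim. COX6A2, a heart and muscle isoform, read 3.08 on all 6 arrays and was not tested, and NDUFA4L2 lay at the floor of 2.12 on 5 arrays and at 2.21 in blastocyst pool A. COX7A1, also of heart and muscle, had 4.19, 5.66 and 4.65 in degenerative pools and 4.15, 4.65 and 4.96 in blastocyst pools. Neither NDUFA4L2 nor COX7A1 differed beyond the spread between pools.

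COX6B2, known as a testis isoform, had the largest difference of any subunit gene. It had 3.16, 5.86 and 6.07 in degenerative pools, against 5.69, 6.94 and 6.90 in blastocyst pools. Each degenerative pool was below the blastocyst pool of its letter, and pool A was the lowest of each group. The difference was -1.48 ± 0.94 (SE, n = 3 each, adjusted p = 0.710, limma), and -0.54 without degenerative pool A.

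COX8B, a heart and muscle isoform, had 2 probe sets that disagreed. One had 12.91, 13.08 and 12.34 in degenerative pools, against 12.21, 12.40 and 12.40 in blastocyst pools, with degenerative pools A and B above all others. Its difference was 0.44 ± 0.22 (SE, n = 3 each; adjusted p = 0.635, limma). The other lay at the floor on all 6 arrays, and which of the 2 reads the transcript was not tested.

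The ubiquitous partners overlapped between the groups. COX8A had 12.17, 13.52 and 13.62 in degenerative pools and 13.09, 13.44 and 13.68 in blastocyst pools (difference -0.30 ± 0.46, SE, n = 3 each, and 0.16 without degenerative pool A). COX7A2 had 13.89, 14.47 and 14.44 in degenerative pools and 14.26, 14.40 and 14.39 in blastocyst pools (difference -0.08 ± 0.18, SE, n = 3 each, and 0.11 without that pool). NDUFA4 had 11.87, 12.90 and 12.85 in degenerative pools and 12.32, 12.70 and 12.94 in blastocyst pools (difference -0.11 ± 0.35, SE, n = 3 each, and 0.23 without it). For all of them degenerative pool A was the lowest of the 6 pools.

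COX6A1 had 13.60, 14.14 and 14.23 in degenerative pools and 13.71, 14.20 and 14.38 in blastocyst pools on its brighter probe set (difference -0.11 ± 0.26, SE, n = 3 each, and 0.09 without degenerative pool A). Its dimmer probe set gave the largest difference of any member, -1.61 ± 0.90 (SE, n = 3 each, adjusted p = 0.666, limma). Here the values were 2.38, 3.47 and 3.54 in degenerative pools, against 6.47, 3.47 and 4.27 in blastocyst pools, with blastocyst pool A above all others.

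**Figure D3:**
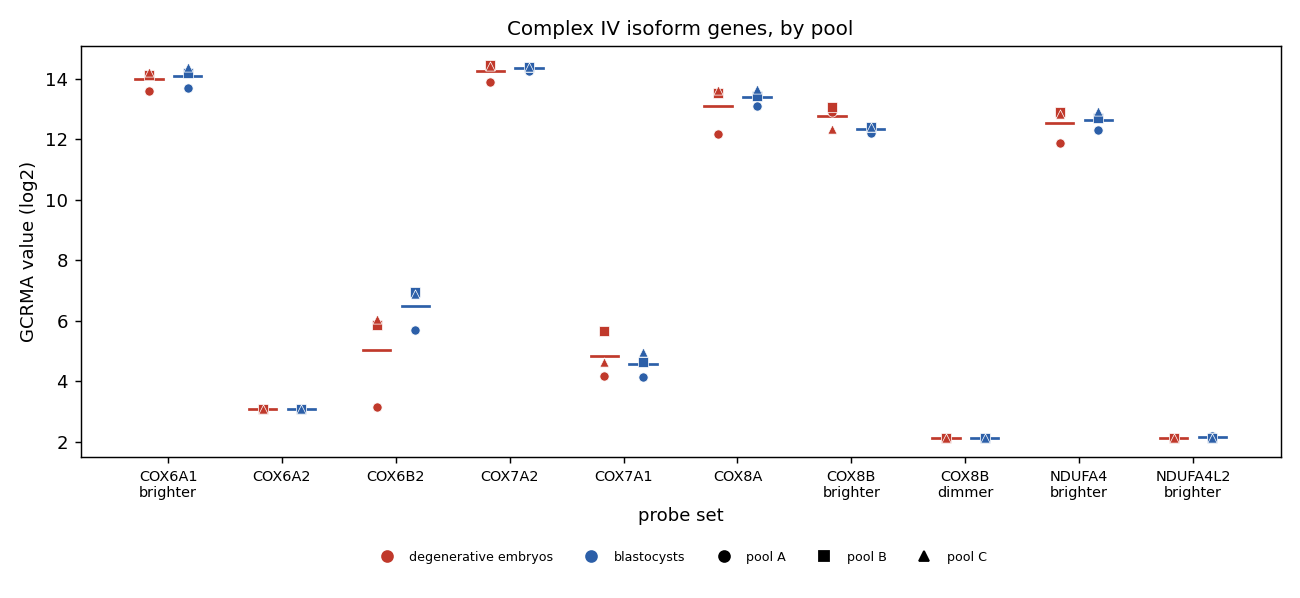
GCRMA value (log2, y axis) of complex IV isoform genes by probe set (x axis), red for degenerative pools and blue for blastocyst pools, with symbols for pools A, B and C and lines for means. COX6B2 has its lowest value, 3.16, in degenerative pool A, and the dimmer COX8B probe set and NDUFA4L2 lie at or near the floor of 2.12. Levels of different probe sets are not comparable.

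COX7A2L, which joins complexes III and IV into supercomplexes, was the member outside the subunits with the smallest p. It had 11.91, 11.94 and 12.01 in degenerative pools A, B and C, against 12.54, 12.11 and 12.51 in blastocyst pools A, B and C. The degenerative pools lay close together and all below the blastocyst pools. The difference was -0.43 ± 0.14 (SE, n = 3 each; adjusted p = 0.542, limma), -0.41 without degenerative pool A, and SAM called it at 25%.

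Complex V had the lowest median of the 5 complexes, -0.23, with 5 genes higher and 11 lower in degenerative embryos, and it too moved with pool A, to -0.01 without degenerative pool A and -0.07 without both. The catalytic F1 head (5 genes) had a median of 0.02, the peripheral stalk that holds it (4 genes) -0.23, the c subunits of the rotor (3 genes) -0.38 and the other membrane subunits (4 genes) -0.43. Without degenerative pool A the medians were 0.04, -0.15, -0.03 and 0.39 for the same parts. The median of the membrane subunits thus changed sign, while that of the stalk stayed below 0.

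ATP5F1B, the subunit with the catalytic site, had 15.21, 14.88 and 14.73 in degenerative pools and 14.78, 14.80 and 14.72 in blastocyst pools. The values overlapped, with only degenerative pool A set apart (difference 0.18 ± 0.13, SE, n = 3 each, adjusted p = 0.737, limma, and 0.04 without degenerative pool A). ATP5F1C, the shaft that turns inside the head, was named after its values were seen. It had 13.70, 13.80 and 13.57 in degenerative pools and 13.77, 13.76 and 13.74 in blastocyst pools, and its 95% interval ran from -0.25 to 0.11.

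All 4 genes of the peripheral stalk had lower means in degenerative embryos. ATP5PD, subunit d, had 12.90, 13.42 and 13.36 in degenerative pools, against 13.43, 13.56 and 13.68 in blastocyst pools. The groups did not overlap, though degenerative pool B and blastocyst pool A were close (difference -0.33 ± 0.17, SE, n = 3 each; adjusted p = 0.638, limma, and -0.17 without degenerative pool A). ATP5PF, subunit F6, had 11.53, 12.63 and 12.87 in degenerative pools, against 12.68, 12.96 and 13.02 in blastocyst pools. Degenerative pool A was lowest and pool C lay among the blastocyst pools (difference -0.55 ± 0.39, SE, n = 3 each, adjusted p = 0.736, limma, and -0.14 without degenerative pool A). ATP5PB and ATP5PO, subunits b and OSCP, differed by -0.13 ± 0.15 and -0.10 ± 0.16 (SE, n = 3 each), and by -0.24 (ATP5PB) and 0.00861 (ATP5PO) without degenerative pool A.

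ATP5MG, subunit g of the membrane part, was lower on both of its probe sets. The dimmer one had 11.96, 11.83 and 12.38 in degenerative pools, against 12.78, 12.50 and 12.73 in blastocyst pools. The groups did not overlap, the difference was -0.61 ± 0.18 (SE, n = 3 each; adjusted p = 0.532, limma), and SAM called it at 25%. The brighter one had 12.14, 13.21 and 13.41 in degenerative pools and 13.13, 13.30 and 13.60 in blastocyst pools. Here degenerative pool A alone lay below the blastocyst pools, and the difference of -0.42 ± 0.39 (SE, n = 3 each) was -0.03 without it.

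The 3 genes ATP5MC1, ATP5MC2 and ATP5MC3 encode the same mature c subunit with different import sequences. ATP5MC3 had the smallest standard error of the subunit genes, 0.04, with 14.83, 14.85 and 14.86 in degenerative pools and 14.81, 14.83 and 14.89 in blastocyst pools (95% interval of the difference -0.10 to 0.11). ATP5MC2 had 11.47, 12.91 and 12.87 in degenerative pools and 12.75, 13.01 and 13.19 in blastocyst pools (difference -0.57 ± 0.45, SE, n = 3 each), and -0.10 without degenerative pool A. ATP5MC1 had 10.40, 11.35 and 11.49 in degenerative pools and 11.19, 11.44 and 11.74 in blastocyst pools (difference -0.38 ± 0.35, SE, n = 3 each), and -0.03 without degenerative pool A. For ATP5MC1 and ATP5MC2 degenerative pool A was below all other pools, while for ATP5MC3 no pool stood apart.

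ATP5IF1, the protein that inhibits ATP hydrolysis by the synthase, had 12.0022, 13.23 and 13.44 in degenerative pools and 13.26, 13.46 and 13.60 in blastocyst pools. Degenerative pool A was again the lowest (difference -0.55 ± 0.43, SE, n = 3 each, adjusted p = 0.737, limma). Without it the difference was -0.10.

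**Figure D4:**
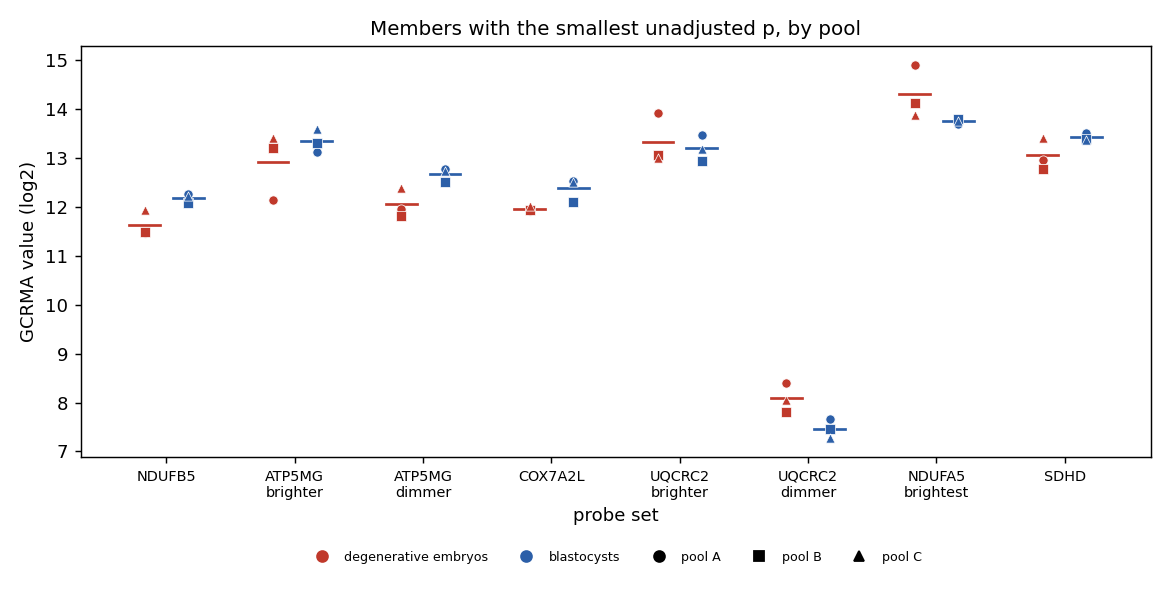
GCRMA value (log2, y axis) of the probe sets with small unadjusted p, with the other probe sets of ATP5MG and UQCRC2, red for degenerative and blue for blastocyst pools, symbols for pools A, B and C and lines for means. NDUFB5, the dimmer ATP5MG probe set and COX7A2L have every degenerative pool under the lowest blastocyst pool, but their adjusted p was 0.514, 0.532 and 0.542.

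The fit with the replicate letter as a block gave no member either (smallest adjusted p 0.495, limma), and 0 calls in place of 4 over all probe sets. With the block 8 of the 102 reached an unadjusted limma p under 0.05 (7.84%), against 9.45% of all, in place of 4. The 8 were probe sets of NDUFA7, NDUFB5, NDUFS8, NDUFAF8, UQCRC2, UQCRQ, COX7A2L and ATP5MG. Those of NDUFAF8 and UQCRC2 had higher means in degenerative embryos, and the rest had lower means. NDUFA7, an accessory subunit of complex I, had 10.63, 11.54 and 11.63 in degenerative pools, against 10.89, 11.82 and 12.10 in blastocyst pools, lower within each letter. UQCRQ, a small subunit of complex III, had 8.87, 9.69 and 10.18 in degenerative pools and 9.34, 9.93 and 10.42 in blastocyst pools, also lower within each letter. NDUFAF8, an assembly factor, had 8.47, 9.77 and 9.87 in degenerative pools, against 7.98, 9.37 and 9.70 in blastocyst pools, higher within each letter.

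The spread within the groups followed the pools. Pool A was the lowest degenerative pool for 59 of the 78 subunit genes (75.6%), against 37% of all genes, and the lowest blastocyst pool for 63 (80.8%), against 45.4% of all genes. It lay at least 0.5 units below the mean of pools B and C for 42 subunit genes in degenerative embryos (53.8%, against 25% of all genes) and for 38 in blastocysts (48.7%, against 21.2% of all genes). Over the 76 subunit genes with a mean of at least 5, the distance of pool A from pools B and C in degenerative embryos and that in blastocysts correlated across genes at r = 0.796, against 0.422 over 6154 genes. Genes on the same 6 arrays are not independent replicates, so the r is a description. The 3' to 5' gap of GAPDH, another control gene, was 2.51 in degenerative pool A, against 2.52 and 2.48 in pools B and C. In blastocyst pool A it was 1.83, against 2.89 and 2.57 in B and C. Each other control gene also had its smallest blastocyst gap in pool A. It was -1.65 for EF1A (0.87 and -0.35 in B and C) and 2.13 for cyclophilin (2.72 and 2.54). For eIF-4E it was 6.60 (8.59 and 8.36). For actin, whose 5' signal lay near the floor throughout, the gap was 5.37 (6.65 and 5.92) and followed the 3' signal alone. Among degenerative pools, pool A had the largest gap for EF1A and eIF-4E and the smallest for cyclophilin and actin. The part of RNA quality in the pattern was not tested.

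**Figure D5:**
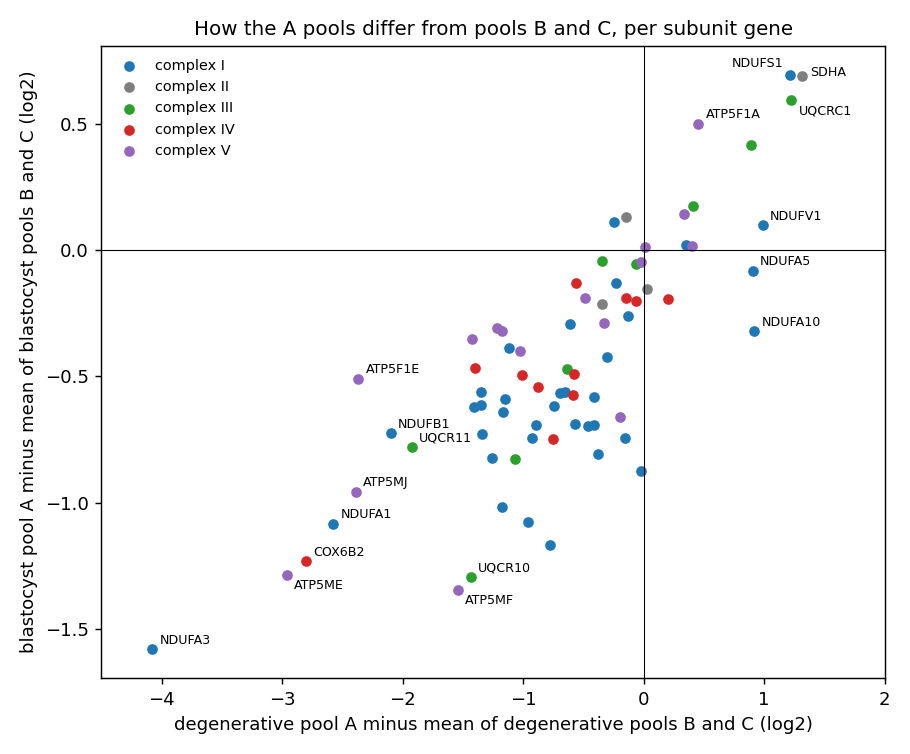
Distance of pool A from the mean of pools B and C (log2) in degenerative embryos (x axis) and in blastocysts (y axis) for 76 subunit genes with a mean of at least 5, coloured by complex. NDUFA3 lies furthest to the lower left at -4.08 and -1.58, and SDHA, UQCRC1 and NDUFS1 at the upper right.

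The genes at the ends of this pattern were named after their values were seen. Below pools B and C in degenerative pool A, NDUFA3 was followed by ATP5ME (-2.96), COX6B2 (-2.80), NDUFA1 (-2.58), ATP5MJ (-2.39), ATP5F1E (-2.37), NDUFB1 (-2.10) and UQCR11 (-1.92). Apart from COX6B2 these encode small accessory or membrane subunits and the epsilon subunit of F1. ATP5ME, subunit e of the synthase, had 8.96, 11.88 and 11.95 in degenerative pools and 10.51, 11.72 and 11.88 in blastocyst pools, with both A pools lowest. NDUFA1, which is needed for assembly of the membrane arm in human cells, had 10.41, 12.84 and 13.12 in degenerative pools and 11.59, 12.37 and 12.98 in blastocyst pools, with the same order.

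At the other end, degenerative pool A lay above pools B and C for SDHA (1.31), UQCRC1 (1.23), NDUFS1 (1.21), NDUFV1 (0.99), NDUFA10 (0.92), NDUFA5 (0.90) and UQCRC2 (0.89). SDHA, UQCRC1, NDUFS1 and UQCRC2 were also highest in pool A among blastocysts, and NDUFA10 was lowest there (-0.32). NDUFA5 (-0.08, lowest in pool A) and NDUFV1 (0.10, highest in pool A) differed little in blastocysts. NDUFS1, the largest subunit of complex I, had 12.29, 11.19 and 10.96 in degenerative pools and 11.97, 11.25 and 11.30 in blastocyst pools. Its groups overlapped and the difference was -0.02 ± 0.44 (SE, n = 3 each), and -0.43 without degenerative pool A.

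By role, the median distance of degenerative pool A was -0.14 for the core and -0.83 for the accessory subunits of complex I. In complex V it was 0.01 for the F1 head, -0.41 for the stalk, -1.03 for the c subunits and -1.97 for the other membrane subunits. In blastocysts the medians were -0.28 for the core and -0.66 for the accessory genes of complex I, 0.01 for the F1 head, -0.24 for the stalk, -0.35 for the c subunits and -1.12 for the membrane subunits. Complex II had -0.06 in degenerative embryos and -0.01 in blastocysts.

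Genes that feed or build the respiratory chain gave no call by limma either. With 0.0211% of all probe sets called, lists of this size could not show a lower share. The genes named here were the 2 with the smallest limma p of each list. Groups did not overlap for 18.2% of all genes tested. They did not overlap for 1 higher and 3 lower of 30 assembly factors, and for 1 higher and 1 lower of 7 carriers. In the lists of 6 electron donors, 15 citric acid cycle genes and 5 uncoupling genes it was 1 lower each. Of 30 assembly factors on the array (of 53 listed), 17 were higher and 13 lower, with a median of 0.03 (0.10 without degenerative pool A). COX20, which helps to insert the mitochondrially encoded COX2, had 3.74, 6.72 and 6.46 in degenerative pools, against 7.63, 7.65 and 7.98 in blastocyst pools. All degenerative pools were lower and pool A the lowest (difference -2.11 ± 0.89, SE, n = 3 each; adjusted p = 0.604, limma, and -1.16 without degenerative pool A). COX19, of the copper delivery to complex IV, had 10.95, 10.35 and 9.64 in degenerative pools, against 8.95, 9.40 and 9.17 in blastocyst pools, all higher (difference 1.14 ± 0.37, SE, n = 3 each, adjusted p = 0.547, limma).

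Cytochrome c itself was not among the named probe sets used here, and of 6 electron donors to coenzyme Q 4 were higher and 2 lower, with a median of 0.27 that was -0.06 without degenerative pool A, where 3 were higher. ETFA, which carries electrons from fatty acid oxidation, had 11.65, 10.85 and 11.21 in degenerative pools, against 12.32, 11.76 and 11.73 in blastocyst pools, with no overlap (difference -0.70 ± 0.28, SE, n = 3 each; adjusted p = 0.596, limma). GPD2, the mitochondrial glycerol phosphate dehydrogenase, differed by -0.84 with overlapping pools. Of 15 genes of pyruvate dehydrogenase and the citric acid cycle 4 were higher and 11 lower, with a median of -0.10 (-0.18 without degenerative pool A). DLD, a subunit shared by the pyruvate and oxoglutarate dehydrogenases, had 13.67, 13.04 and 13.54 in degenerative pools, against 13.99, 13.77 and 13.69 in blastocyst pools, with no overlap (difference -0.40 ± 0.20, SE, n = 3 each, adjusted p = 0.634, limma), and FH, fumarase, differed by -0.23.

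Of the 7 carriers of nucleotides, phosphate and the outer membrane, 4 were higher and 3 lower, with a median of 0.18 that was -0.00993 without degenerative pool A, where 3 were higher. SLC25A4, an exchanger of ADP and ATP known from heart and muscle, had 11.58, 11.50 and 11.61 in degenerative pools, against 10.81, 10.93 and 11.36 in blastocyst pools. All degenerative pools were higher (difference 0.53 ± 0.16, SE, n = 3 each; adjusted p = 0.533, limma). VDAC2, a channel of the outer membrane, had 14.57, 14.36 and 14.14 in degenerative pools, against 14.82, 14.62 and 14.58 in blastocyst pools, all lower (difference -0.32 ± 0.14, SE, n = 3 each, adjusted p = 0.615, limma).

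Of 10 genes of mitochondrial biogenesis 3 were higher and 7 lower, with a median of -0.02, and of 5 uncoupling or alternative route genes 1 was higher and 4 lower, with a median of -0.04. NRF1, a transcription factor of nuclear subunit genes, had 8.38, 5.79 and 6.75 in degenerative pools, against 4.70, 5.39 and 6.0038 in blastocyst pools. The groups overlapped (difference 1.61 ± 0.78, SE, n = 3 each; adjusted p = 0.628, limma), and PPRC1, a coactivator of NRF1, differed by 0.31. Without degenerative pool A these differences were 0.91 (NRF1) and 0.15 (PPRC1). The lists share NDUFAF3, NDUFAF5, NDUFAF6, NDUFAF8, COX7A2L and ATP5IF1 with the members.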

How the data were processed

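The authors amplified RNA from each pool, hybridised it to the Affymetrix array and made log2 expression values per probe set with GCRMA 2.14.1: background correction from probe sequence, quantile normalization and median polish. The labels give 1 round of amplification and the methods 2. The deposited log2 values were used as given, and single probe signals, detection calls and scan dates were not analysed here. Arrays have no read depth. Precision is limited by 3 pools a group and, where signals were dim, by a lowest value of 2.12, at which 27.4% to 28.6% of the 24016 probe sets lay. Quantile normalization fixes the overall distribution of each array, so the values show a gene relative to the others and not a change of all RNA. Array medians over the probe sets tested were 6.35 to 6.48.

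Control probe sets and 5079 with 1 value on all arrays were left out, as in the methods. Symbols were taken from GEO's annotation of the array (11002 of the probe sets tested had 1 symbol, 64 several and 7871 none). The test was limma 3.58.1 (R 4.3.3, lmFit and eBayes) with Benjamini-Hochberg adjustment over all probe sets tested. The limit was an adjusted p of 0.15, as the methods set for their false discovery rate. The p-values rest on the variation among pools of different embryos. SAM was written again after its description, with all 20 relabelings and delta in steps of 0.1. Steps of 0.01 gave 75 calls at 15% and 938 at 25%, in place of 67 and 910. Both scripts were tested on simulated data.

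Whether the letters pair the pools was checked on deviations from the group means over the probe sets tested. Same-letter pools correlated at 0.373 (A), 0.180 (B) and 0.275 (C), although degenerative pool B was closer to blastocyst pool C (0.374). Over the subunit genes alone same-letter pools correlated at 0.797 (A), 0.734 (B) and 0.689 (C), and pools of different letters were not compared. The SE and p-values given for single genes come from the fit without the block, unless the block is named. The letters come from the titles, which do not say what they mark, and the letter was used as a block in an alternative fit. Other alternatives were centred arrays, a minimum mean of 5, constant probe sets kept, trend and robust priors, each pool left out, the mean over probe sets of a gene, SAM, and a limit of 25%.

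Members and lists were chosen with earlier results of these data known. Genes named were, per complex, the 3 with the smallest p and that with the highest mean, those with a difference of at least 1, those called by limma or by SAM at 15% or 25%, tissue isoforms, and genes with probe sets of mean at least 5 that differed in sign and by at least 0.5 from each other. From each comparison list the 2 genes with the smallest limma p in these data were named, so their separation was favoured by the choice. The others were named after their values were seen. No sequences are shown.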

Additional observations from a re-analysis of the deposited data

How the results depend on the processing

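No oxidative phosphorylation probe set was called under any limma alternative, and SAM at 25% called 3. Over all probe sets limma called 4, against 1 with centred arrays, 1 with a minimum mean of 5, 1 with trend and robust priors, 0 with the replicate block, 0 without both A pools (added after the data were seen), 30 at 25% and 1 to 42 with 1 pool left out (42 and 14 without degenerative pools A and C, 2 without blastocyst pool A, and 1 without degenerative pool B, blastocyst pool B or blastocyst pool C), while SAM called 67 at 15% and 910 at 25%. Subunit genes with lower means numbered 53, and 24 to 62 with 1 pool left out (24 without degenerative pool A and 34 with blastocyst pool C left out). The medians per complex crossed 0 with degenerative pool A left out in complexes I (0.15), II (-0.02), III (0.07) and IV (0.16). With blastocyst pool C left out they crossed 0 in complexes I (0.04), III (0.12) and IV (0.04). Those of complexes III (0.01) and IV (0.06) did so without both A pools too, and that of complex IV was 0.000588 with centred arrays and 7.58e-05 without blastocyst pool B.

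Of the single genes named, 27 values under an alternative turned in sign and 361 did not. Centred arrays gave 0.0174 for COX4I1, 0.0184 for UQCRFS1 and 0.000588 for NDUFA4L2, the mean over probe sets gave 0.12 for NDUFAB1, and without both A pools ATP5MC3 was at -0.00353, COX7A2 at 0.062, COX8A at 0.00885 and NDUFA4 at 0.0605. With 1 pool left out the difference ran from -0.00991 to 0.0289 for ATP5MC3, -0.0801 to 0.0408 for COX4I1, -0.298 to 0.0892 for COX6A1, -0.17 to 0.57 for COX7A1, -0.18 to 0.11 for COX7A2, -0.56 to 0.17 for COX8A, -1.70 to 0.35 for NDUFA3, -0.29 to 0.23 for NDUFA4, -0.394 to 0.0634 for NDUFAB1, -0.13 to 0.72 for SDHA, -0.82 to 0.17 for UQCR11 and -0.0646 to 0.0594 for UQCRFS1. The cause was not tested. Where a pool was left out of a group, 2 remained.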

Other observations

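The genes given here were chosen after their values were seen. A pair of factors that build complex V had means over 1 unit lower in degenerative embryos, and differences of -0.39 (TMEM70) and -0.25 (FMC1) without degenerative pool A. TMEM70, which helps to assemble the ATP synthase, had 7.76, 10.41 and 10.42 in degenerative pools A, B and C, against 11.01, 10.54 and 10.87 in blastocyst pools A, B and C. All degenerative pools were lower, B and C by little. FMC1, a factor of F1 assembly in yeast, had 6.01, 9.02 and 9.18 in degenerative pools, against 8.68, 9.46 and 9.91 in blastocyst pools. ATPAF2, another F1 assembly factor, had a higher mean in degenerative embryos, with 8.91, 8.92 and 8.51 in degenerative pools, against 8.12, 8.58 and 8.65 in blastocyst pools (difference 0.33, and 0.27 without degenerative pool A). None of the 3 was called by limma at an adjusted p of at most 0.15 (adjusted p = 0.714 for TMEM70, 0.737 for FMC1 and 0.691 for ATPAF2).

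NDUFAF6, an assembly factor of complex I, had 6.30, 3.80 and 3.99 in degenerative pools and 4.04, 4.36 and 4.14 in blastocyst pools, with degenerative pool A the single high one. A second probe set of ATP5F1B had 9.09, 7.03 and 4.55 in degenerative pools and 9.84, 4.70 and 5.52 in blastocyst pools, with pool A the highest of each group.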
